A study of Mus musculus with 6 samples.

Results

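The genes examined were 10 activity-induced genes whose mRNA neurons make in quantity after synaptic activity. They are Arc, Nptx2, Dusp1, Dusp5, Dusp6, Nr4a2, Nr4a3, Btg2, Ier2 and Ptgs2, chosen by symbol and matched to their Ensembl identifiers. All 10 were found among the 21006 genes of the deposited values, and all 10 passed the filter on low values. mRNA was measured in the prefrontal cortex of male wild type C57BL/6 mice of 18 months by the age label, although the sample titles carry 17M. Animals labelled PND, which model postoperative neurocognitive disorder (n = 3), received 1.5% isoflurane and an exploratory laparotomy, an operation in which the abdominal organs are inspected through an incision. Animals labelled CON (n = 3) had neither, so the anesthesia and the operation cannot be told apart. Animals of both groups went through the same behavioral tests. The tissue was taken days after the operation, shortly after the last maze session, under deep isoflurane and after perfusion with saline. In that maze test, the paper reports, PND animals took longer than CON animals to reach the target hole. The part of this in the levels was not tested.

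When a neuron is depolarised, calcium entry and the ERK kinase cascade act on transcription factors such as CREB and SRF, which switch on immediate early genes without new protein synthesis. The earliest products, such as Fos and Npas4, are themselves transcription factors. Other products act directly on the synapse or on the signal, and such effectors are the main subject here. They include Arc at the dendritic spine and phosphatases that turn the kinase cascade off again. The genes examined also include orphan nuclear receptors, which are transcription factors themselves. In cortex the mRNA of many of these genes rises within minutes of experience and declines within hours. Their levels therefore depend on when and how the animal was last active.

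Levels were given as FPKM, fragment numbers scaled by exon length and by depth, which can be compared between genes. Depth was not stated, and the steps in which low values move put it between 7192500 and 9379500 fragments per sample. Fragment numbers behind single values are therefore estimates. The markers of cortical excitatory neurons were found in all samples, with a summed level of 154 to 189 FPKM over 7 genes in PND and 154 to 238 FPKM in CON. The 8 genes of the neighbouring striatum summed to 211 to 263 FPKM in PND, and to 136 FPKM in CON replicate 2 and 347 FPKM in CON replicate 3. In the 10% of genes with the highest GC content (1233 genes), the median deviation from the gene mean on the log2 scale was -0.56 in CON replicate 1 and 0.49 in CON replicate 2, and it was -0.30 in PND replicate 2 and 0.37 in PND replicate 3.

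Btg2 was the single gene of the 10 with an unadjusted p below 0.05 between the groups, and it was lower in PND. Over all 18185 genes tested, 3.13% had such a p, and 1.40% had it with a lower level in PND. After Benjamini-Hochberg adjustment over all genes in limma 0 of the 10 genes had a p below 0.05, and 0 had one with voom, while 0.0110% of all genes did in limma. Each of the 10 adjusted p-values was 0.9999. Ier2 was the other gene whose 3 PND samples all lay below the 3 CON samples, and no gene of the 10 lay wholly above. The groups did not overlap in 7.66% of all genes, with PND wholly below in 3.88% and wholly above in 3.78%. The remaining 8 genes overlapped between the groups. The log2 fold change was below 0 for 6 of the 10 genes and above 0 for 4, against 47.6% below 0 among all genes tested, and its median was -0.22 against 0.012 over all genes. This median was -0.019 without CON replicate 2 and ranged down to -0.378 across the fits that left out another sample. In this bulk tissue fewer cells of a type and less RNA per cell cannot be told apart.

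**Figure D1:**
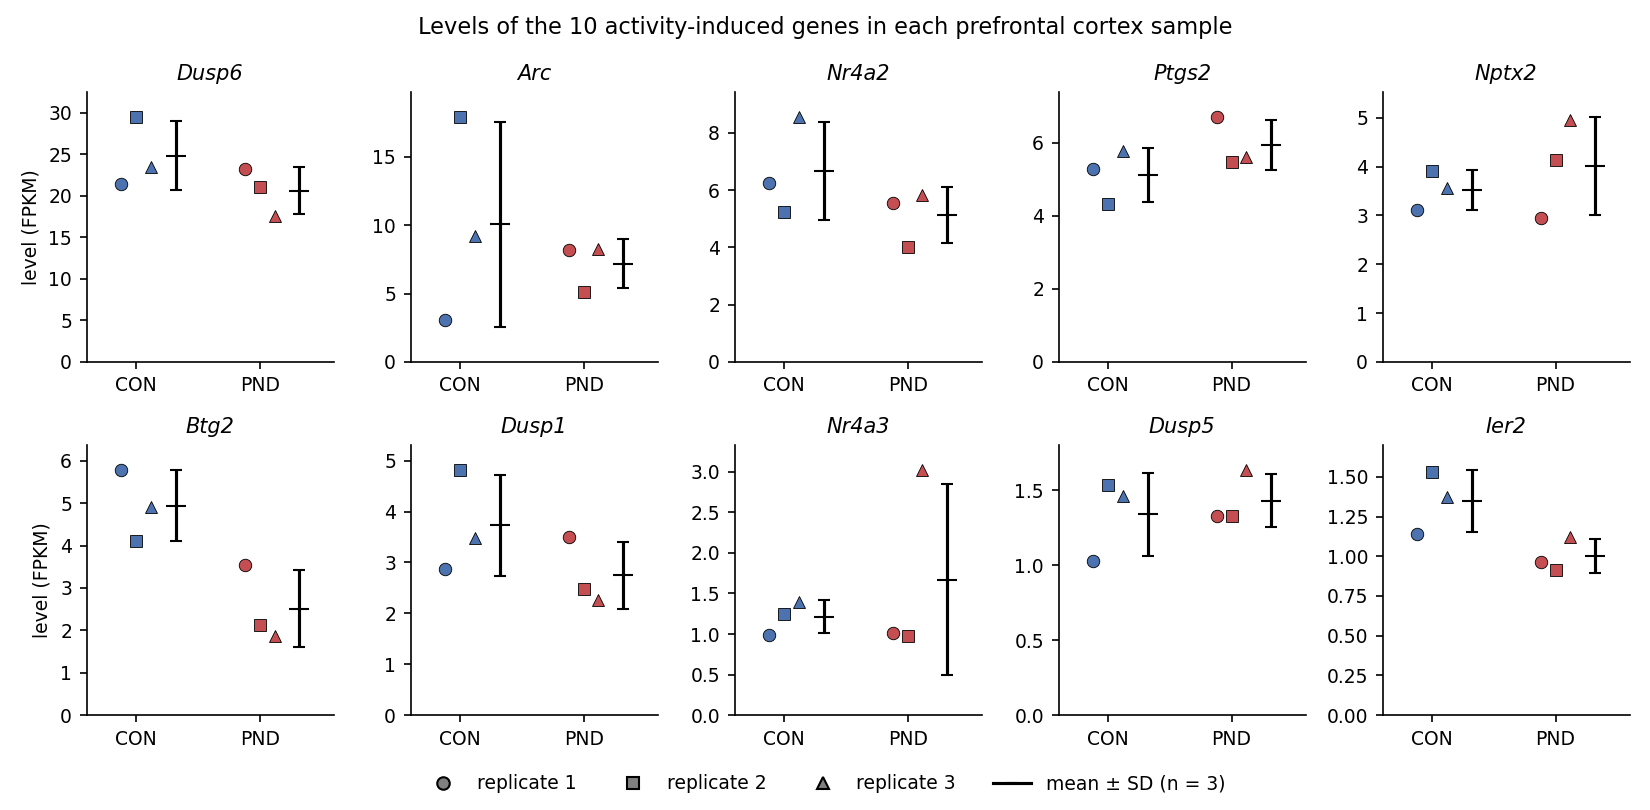
The level of each of the 10 genes in FPKM (y axis, linear, starting at 0) is shown for the 3 CON and the 3 PND animals, with the symbol giving the replicate and the bar the mean ± SD. Btg2 and Ier2 separate the groups, Arc spreads from 3.03 to 17.9 FPKM within CON, and Nr4a3 has 1 PND sample at 3.02 FPKM.

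Btg2 (ENSMUSG00000020423, chromosome 1, 134075170 to 134079120 in GRCm38, protein-coding) belongs to the BTG/TOB family, whose proteins restrain proliferation and recruit the deadenylase that shortens mRNA tails. Its level was 3.54, 2.12 and 1.86 FPKM in PND replicates 1 to 3, and 5.79, 4.12 and 4.92 FPKM in CON replicates 1 to 3. The highest PND sample was below the lowest CON sample. Mean levels were 2.51 ± 0.905 FPKM for PND against 4.94 ± 0.837 FPKM for CON (SD, n = 3). The log2 fold change was -0.99 (SE 0.27, 95% interval -1.61 to -0.37), or 0.503 of the CON level, and the adjusted p in limma was 0.9999. An exact two-sided permutation test gave p = 0.1, which is the smallest that 3 against 3 animals allow. The samples held 46.0 to 119 estimated fragments each, 180 in all in PND (exact Poisson 95% interval 154 to 208) and 308 in CON (274 to 344), and these intervals cover counting error only. Leaving out 1 sample at a time gave Btg2 log2 fold changes between -1.26 and -0.81, with an unadjusted p below 0.05 each time.

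The rest of the BTG/TOB family gave no call beside Btg2. Of Btg1, Btg3, Tob1 and Tob2, 3 had a log2 fold change below 0, but 0 of 4 had an unadjusted p below 0.05 in either direction in limma, and their median log2 fold change was -0.18. Tob2, another antiproliferative protein, had the smallest p of these, with 5.55, 4.97 and 4.67 FPKM in PND and 5.18, 3.44 and 3.48 FPKM in CON. The PND samples of Tob2 lay within or above the range of CON, with a log2 fold change of 0.34 (SE 0.20).

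Promoter sequences are shown for Btg2, because its level differed most clearly, for Dusp1, because it is the other gene with the full CREB motif, and for Dusp5, because it holds a pair of SRF motifs. They are from RefSeq on GRCm38.p6, run 5′ to 3′ on the strand of the gene, and cover 250 bases before the start site and 50 after it. An entry was matched for 7 of the 10 genes and not for Arc, Nptx2 and Ier2. Capitals mark the motifs found. The Btg2 window is chr1:134079106-134079405 on the minus strand, that of Dusp1 is chr17:26508423-26508722 on the minus strand, and that of Dusp5 is chr19:53528895-53529194 on the plus strand.
Btg2: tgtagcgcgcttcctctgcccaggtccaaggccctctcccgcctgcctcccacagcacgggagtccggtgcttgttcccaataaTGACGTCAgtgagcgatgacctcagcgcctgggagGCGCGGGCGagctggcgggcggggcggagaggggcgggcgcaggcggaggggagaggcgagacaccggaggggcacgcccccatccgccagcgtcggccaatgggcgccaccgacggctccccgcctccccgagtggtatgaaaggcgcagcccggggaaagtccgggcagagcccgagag
Dusp1: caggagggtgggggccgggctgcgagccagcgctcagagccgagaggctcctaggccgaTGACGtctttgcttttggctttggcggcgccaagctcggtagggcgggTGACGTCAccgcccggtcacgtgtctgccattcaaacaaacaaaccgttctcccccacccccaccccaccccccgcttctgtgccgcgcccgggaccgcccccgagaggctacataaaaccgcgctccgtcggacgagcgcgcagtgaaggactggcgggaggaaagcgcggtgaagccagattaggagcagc
Dusp5: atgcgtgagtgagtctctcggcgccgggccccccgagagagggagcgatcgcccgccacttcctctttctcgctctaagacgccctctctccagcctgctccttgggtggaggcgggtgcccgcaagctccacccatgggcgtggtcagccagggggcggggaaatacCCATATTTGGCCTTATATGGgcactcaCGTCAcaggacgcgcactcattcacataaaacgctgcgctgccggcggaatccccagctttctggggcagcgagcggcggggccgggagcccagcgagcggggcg

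The motifs searched on both strands were the cAMP response element (CRE) TGACGTCA, the shorter core TGACG, the AP-1 site TGANTCA, the EGR site GCGNGGGCG, the nuclear receptor element NBRE AAAGGTCA, the TATA box TATAAA and the CArG box, which is the site of SRF. Each full CRE holds 2 cores. The full CRE was found in 2 of the 7 promoters, those of Btg2, where it begins 166 bases before the start site, and Dusp1, where it begins 143 bases before it. The full CRE was present in 1.79% of the 32851 RefSeq promoters. The core was found in 6 of the 7, all but Dusp6, against 20.8% of all promoters. The EGR site was found in Btg2 and Nr4a2, against 5.55% of all promoters. Dusp5 held 2 CArG boxes side by side, which begin 82 and 72 bases before the start site, and 1.63% of all promoters held at least 1. The letters of the TATA box were found in Nr4a2 (13.6% of all promoters), on the opposite strand and beginning 164 bases before the start site. The AP-1 site (7.81% of all promoters) and the NBRE (1.51%) were found in 0 of the 7.

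Ier2 (ENSMUSG00000053560, chromosome 8, 84661331 to 84662852, protein-coding) is an early gene without introns whose nuclear protein is induced by growth factors and by depolarisation. Its level was 0.966, 0.914 and 1.12 FPKM in PND and 1.14, 1.53 and 1.37 FPKM in CON. The groups did not overlap, but PND replicate 3 and CON replicate 1 were almost level. This rested on 11 to 19 estimated fragments per sample, the smallest number of the 10 genes, with 39.9 in all in PND (exact Poisson 95% interval 28.5 to 54.4) and 47.0 in CON (34.5 to 62.5). Ier2 had a log2 fold change of -0.39 (SE 0.23, 95% interval -0.93 to 0.14). In the GC correction a smooth curve of GC content was fitted to the deviations of each sample and subtracted. After it the groups of Ier2 overlapped, while the log2 fold change was -0.499, with no unadjusted p below 0.05. Ier2 has a GC content of 60.9%. Of the other tested IER genes, Ier3 and Ier5l had log2 fold changes of 0.026 and 0.30 and Ier5 had one of -0.20, and 0 of the 3 had an unadjusted p below 0.05 in limma.

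The 3 phosphatases of the DUSP family remove phosphate from MAP kinases and so limit the signal that induced them. Dusp6 (ENSMUSG00000019960, chromosome 10, 99263231 to 99267489), the cytoplasmic phosphatase of ERK, had the highest level of the 10 genes. It stood at 23.2, 21.1 and 17.6 FPKM in PND and at 21.5, 29.5 and 23.5 FPKM in CON. The highest PND sample was above the lowest CON sample, and the log2 fold change was -0.26 (SE 0.16, 95% interval -0.64 to 0.11). With 504 to 754 estimated fragments per sample Dusp6 was the most deeply measured of the 10.

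Dusp1 (ENSMUSG00000024190, chromosome 17, 26505590 to 26562128), a nuclear phosphatase that acts on p38 and JNK as well as ERK and is also induced by glucocorticoids, had 3.50, 2.48 and 2.26 FPKM in PND and 2.88, 4.82 and 3.49 FPKM in CON. PND replicates 2 and 3 were the lowest of the 6 samples, and PND replicate 1 lay within the range of CON. For Dusp1 the log2 fold change was -0.42 (SE 0.25, 95% interval -1.01 to 0.17). With GC correction the 3 PND samples of Dusp1, and likewise those of Dusp6, lay below all CON samples, with log2 fold changes of -0.485 and -0.283 and no unadjusted p below 0.05. With that correction the groups did not overlap in 9.65% of all genes. Only 11 bases of the exons of Dusp1 are shared with another gene, Ergic1 on the opposite strand.

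Dusp5 (ENSMUSG00000034765, chromosome 19, 53529109 to 53542431), the nuclear phosphatase of ERK, had 1.33, 1.33 and 1.64 FPKM in PND and 1.03, 1.54 and 1.46 FPKM in CON. The groups overlapped, and the log2 fold change was 0.10 (SE 0.24, 95% interval -0.46 to 0.66). Its exons share 547 bases, or 22.1% of their length, with AC137853.2 on the opposite strand, and it is not known whether the counting used strand. Among the other MAP kinase phosphatases Dusp4, Dusp7, Dusp8, Dusp10 and Dusp16 were tested, and 0 of these 5 had an unadjusted p below 0.05 in limma. Their median log2 fold change was 0.23, and the smallest p was that of Dusp4, a nuclear phosphatase, with a log2 fold change of 0.32 (SE 0.25).

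**Figure D2:**
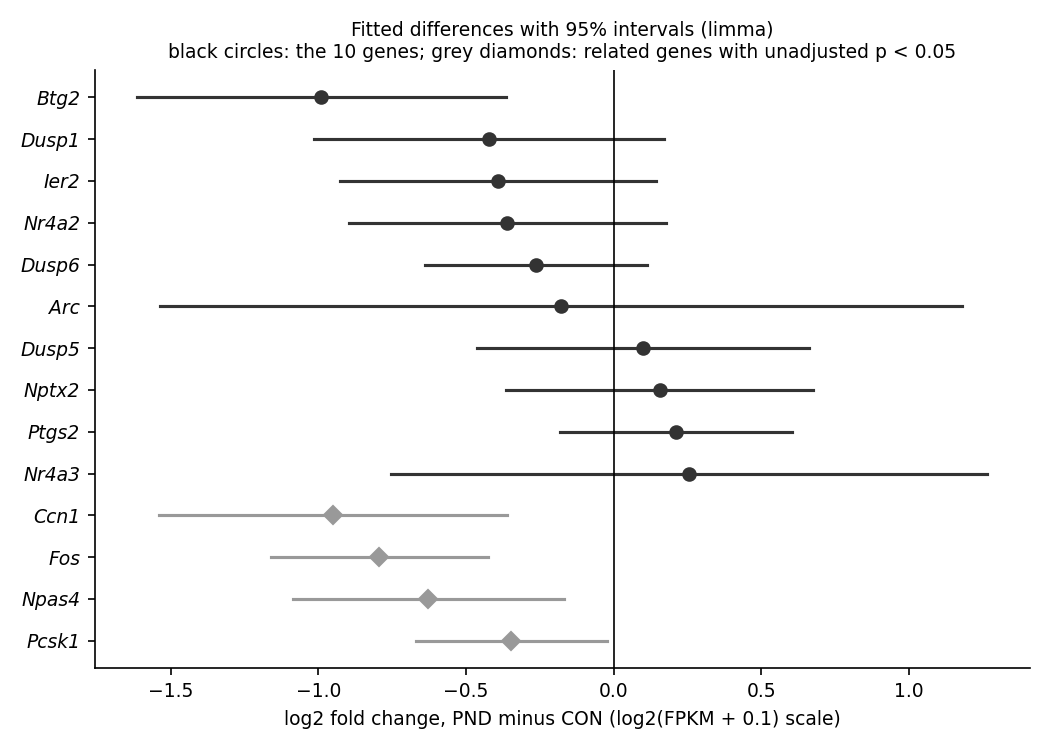
The x axis gives the log2 fold change of PND minus CON on the log2(FPKM + 0.1) scale, with a point for the limma estimate and a line for its 95% interval, for the 10 genes (black circles) and for the related genes with an unadjusted p below 0.05 (grey diamonds). Btg2 is the only one of the 10 whose interval, -1.61 to -0.37, leaves out 0, and the interval of Arc, -1.54 to 1.18, is the widest.

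Nr4a2 and Nr4a3 encode orphan nuclear receptors, transcription factors without an established ligand. Nr4a2, also called Nurr1, is needed for dopamine neurons and marks the claustrum and the deepest cortical layer. Nr4a2 (ENSMUSG00000026826, chromosome 2, 57106830 to 57124003) had 5.56, 4.02 and 5.83 FPKM in PND and 6.23, 5.23 and 8.56 FPKM in CON. The groups overlapped through CON replicate 2 alone, which was below PND replicates 1 and 3. For Nr4a2 the log2 fold change was -0.36 (SE 0.23, 95% interval -0.90 to 0.18). The genes that mark the claustrum and layer 6b with it, 6 in number, summed to 15.3 to 16.3 FPKM in PND and 13.6 to 19.7 FPKM in CON. Nxph4 of that list was at 0 in at least 1 sample. CON replicate 3 was the highest sample for that list and for Nr4a2, and the part of this list in the level of Nr4a2 was not tested.

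Nr4a3 (ENSMUSG00000028341, chromosome 4, 48045153 to 48086447) was low in 5 of the 6 samples. It had 1.01, 0.975 and 3.02 FPKM in PND and 0.992, 1.25 and 1.40 FPKM in CON. PND replicate 3 stood above every other sample, with 169.8 estimated fragments against 44.5 to 60.8 in the others. With all samples the log2 fold change of Nr4a3 was 0.25 (SE 0.43, 95% interval -0.76 to 1.26), and without PND replicate 3 it was -0.25. The third member of the family, Nr4a1, had 5.39, 3.07 and 4.95 FPKM in PND and 2.91, 9.28 and 5.00 FPKM in CON, with a log2 fold change of -0.24 (SE 0.41). PND replicate 3 did not stand out in Nr4a1.

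Arc and Nptx2 encode proteins of the synapse. Arc takes AMPA-type glutamate receptors off the surface of the spine, and its mRNA travels into dendrites after activity. Arc (ENSMUSG00000022602, chromosome 15, 74669083 to 74672570) had 8.20, 5.11 and 8.28 FPKM in PND and 3.03, 17.9 and 9.20 FPKM in CON. CON held both the highest and the lowest sample, which differed 5.92-fold, while the PND samples differed 1.62-fold. Arc averaged 7.20 ± 1.81 FPKM in the PND animals against 10.1 ± 7.49 FPKM in the CON animals (SD, n = 3). For Arc the log2 fold change was -0.18 (SE 0.58, 95% interval -1.54 to 1.18), an interval that holds both a 2-fold decrease and a 2-fold increase.

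The estimate for Arc turned on single animals. Without CON replicate 1 the log2 fold change of Arc was -0.86, with an unadjusted p below 0.05 and an adjusted p of 0.970 in limma. Without CON replicate 2 it was 0.40, and without PND replicate 2 it was 0.048. Arc has a GC content of 59.0%, and its highest and lowest samples were those in which GC-rich genes as a whole were highest and lowest. Between CON replicates 2 and 1 the log2 difference of Arc was 2.53 as deposited and 1.46 after GC correction. This pair of libraries was singled out as the extremes of the GC-rich genes, and the correction removes a dependence on GC content by construction. Across the 10 genes, which share the pair, the difference as deposited had a Pearson r of 0.59 with GC content, given as a description. The estimated fragments for Arc numbered 69.3 in CON replicate 1 and 447 in CON replicate 2.

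**Figure D3:**
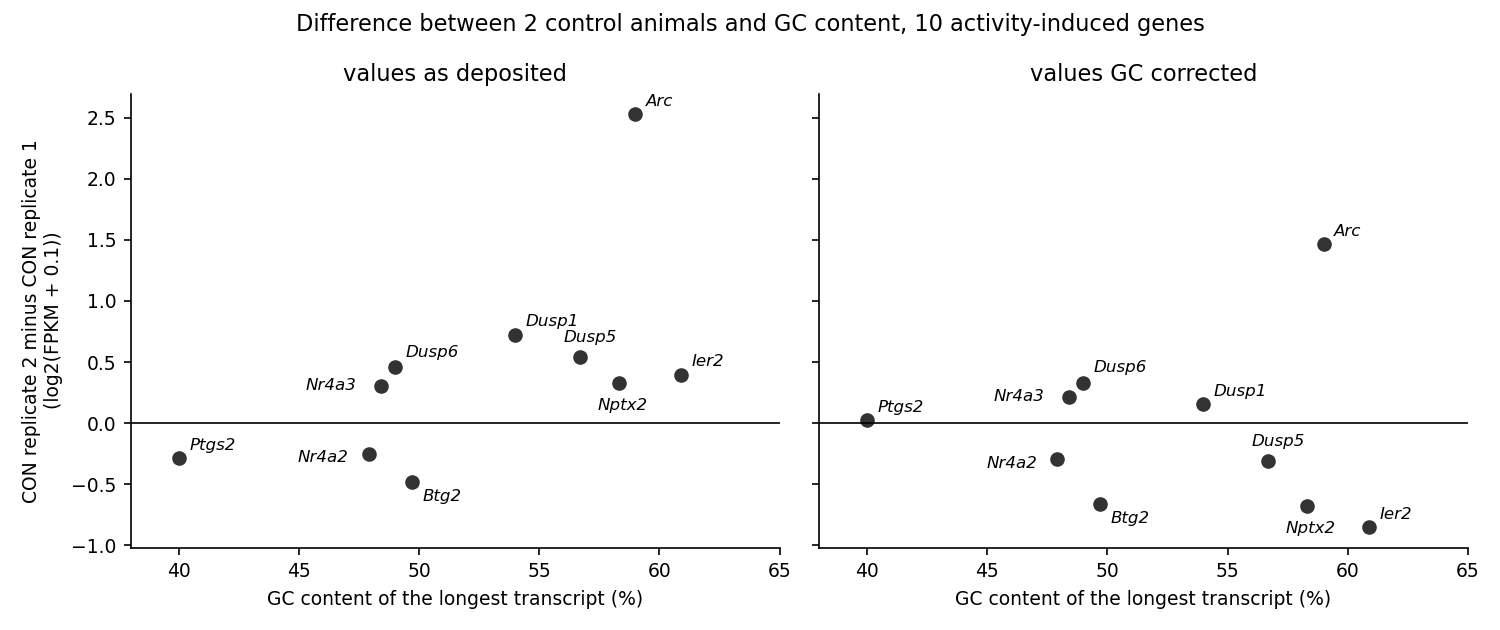
Each point is 1 of the 10 genes, with the GC content of its longest transcript in percent on the x axis and the difference of CON replicate 2 minus CON replicate 1 on the log2(FPKM + 0.1) scale on the y axis, as deposited (left) and after GC correction (right). Arc stands highest in both panels, at 2.53 and 1.46, and a dependence on GC content is removed on the right by construction.

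Nptx2 (ENSMUSG00000059991, chromosome 5, 144545902 to 144557478) encodes a secreted pentraxin that gathers AMPA receptors at excitatory synapses on inhibitory neurons. It had 2.94, 4.14 and 4.96 FPKM in PND and 3.10, 3.92 and 3.56 FPKM in CON. PND held both the lowest and the highest sample. For Nptx2 the log2 fold change was 0.16 (SE 0.22, 95% interval -0.36 to 0.67). Its partners Nptx1 and Nptxr and the AMPA receptor subunits Gria1 to Gria4 had an unadjusted p below 0.05 in 0 of 6 genes in limma, with a median log2 fold change of -0.013. Gria1, a subunit of the AMPA receptor, came nearest with 54.0, 48.1 and 61.0 FPKM in PND and 45.5, 44.4 and 46.4 FPKM in CON. Its groups did not overlap, and the log2 fold change was 0.25 (SE 0.11). Gria1 had an unadjusted p below 0.05, with a higher level in PND, in 4 of the 17 alternatives, which were quantile normalization, GC correction, voom and the fit without PND replicate 2. Of 6 genes for protein partners of Arc, 0 had an unadjusted p below 0.05 in limma, and their median log2 fold change was 0.16. The smallest p among these was that of Dnm2, an endocytic dynamin, with a log2 fold change of 0.16.

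Ptgs2 (ENSMUSG00000032487, chromosome 1, 150100031 to 150108227), also called cyclooxygenase-2, makes the precursor of prostaglandins, and excitatory cortical neurons express it in the absence of inflammation. It had 6.72, 5.47 and 5.61 FPKM in PND and 5.29, 4.31 and 5.78 FPKM in CON. Only CON replicate 3 lay within the range of PND. The log2 fold change was 0.21 (SE 0.17, 95% interval -0.18 to 0.60), which leaves out a 2-fold difference in either direction. Of the other genes of the prostaglandin pathway 7 of 10 passed the filter on low values, 0 of these had an unadjusted p below 0.05 in limma, and the median log2 fold change was 0.091. The smallest p was that of Ptgds, the prostaglandin D synthase of brain and meninges, with 41.0, 19.3 and 45.3 FPKM in PND and 9.11, 33.0 and 24.8 FPKM in CON (log2 fold change 0.75, SE 0.51).

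The activity-induced transcription factors, which belong to the same response, were compared in the same fit. All 14 were tested, and 12 had a log2 fold change below 0, against 47.6% of all genes tested. An unadjusted p below 0.05 was found for 2, both lower in PND, while 1.40% of all genes were lower with such a p. In limma 0 adjusted p-values of the 14 were below 0.05. The median log2 fold change was -0.22. Fos, a component of AP-1, had 2.18, 2.17 and 2.05 FPKM in PND and 3.73, 3.56 and 4.03 FPKM in CON, and the gap between the groups was wider than the spread within them. Fos had a log2 fold change of -0.79 (SE 0.16, limma adjusted p = 0.787). Npas4, a factor induced by calcium entry, had 4.07, 3.74 and 3.64 FPKM in PND and 4.89, 7.75 and 5.56 FPKM in CON. Npas4 had a log2 fold change of -0.63 (SE 0.20, limma adjusted p = 0.9999). Under all 17 alternatives Fos, Npas4 and Btg2 had an unadjusted p below 0.05.

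Other activity-induced effectors, 20 in number, gave 2 genes with an unadjusted p below 0.05, again both lower. Of all genes tested 1.40% were lower with such a p. The 20 effectors had 0 genes with an adjusted p below 0.05 in limma and a median log2 fold change of -0.07. Ccn1, a secreted matrix protein, had 1.06, 0.752 and 1.06 FPKM in PND and 2.11, 1.52 and 2.20 FPKM in CON. Ccn1 had a log2 fold change of -0.95 (SE 0.25, limma adjusted p = 0.9999), and its unadjusted p was below 0.05 under all 17 alternatives. Pcsk1, a protease that cuts prohormones, had 13.7, 11.6 and 12.2 FPKM in PND and 13.9, 18.1 and 15.9 FPKM in CON. Pcsk1 had a log2 fold change of -0.35 (SE 0.14), and its unadjusted p was below 0.05 in 9 of the 17 alternatives. The kinases, factors and inhibitors of the ERK cascade, 17 genes, had 0 with an unadjusted p below 0.05 in limma and a median log2 fold change of -0.041. The smallest p of that list was that of Spry1, an inhibitor of the cascade, with 1.02, 0.798 and 0.736 FPKM in PND and 0, 0.664 and 0.501 FPKM in CON, where replicate 1 is listed at 0.

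Over all these related lists together 81 genes were tested, 4 had an unadjusted p below 0.05 and were lower in PND, and 0 were higher with such a p. The shares over all genes tested were 1.40% and 1.73%. Without CON replicate 1 the number was 11, of which 10 were lower, while the share over all genes with an unadjusted p below 0.05 went from 3.13% to 4.63%. Among the 11 were Egr1, Fosb, Homer1 and Gadd45b beside Fos and Npas4. Without PND replicate 2 the number was 6, with 3 lower and 3 higher, and without CON replicate 2 it was 6, with 4 lower and 2 higher. Leaving out each of the other samples gave 3 or 4, all lower. The share over all genes across these fits was 2.24% to 5.36%.

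**Figure D4:**
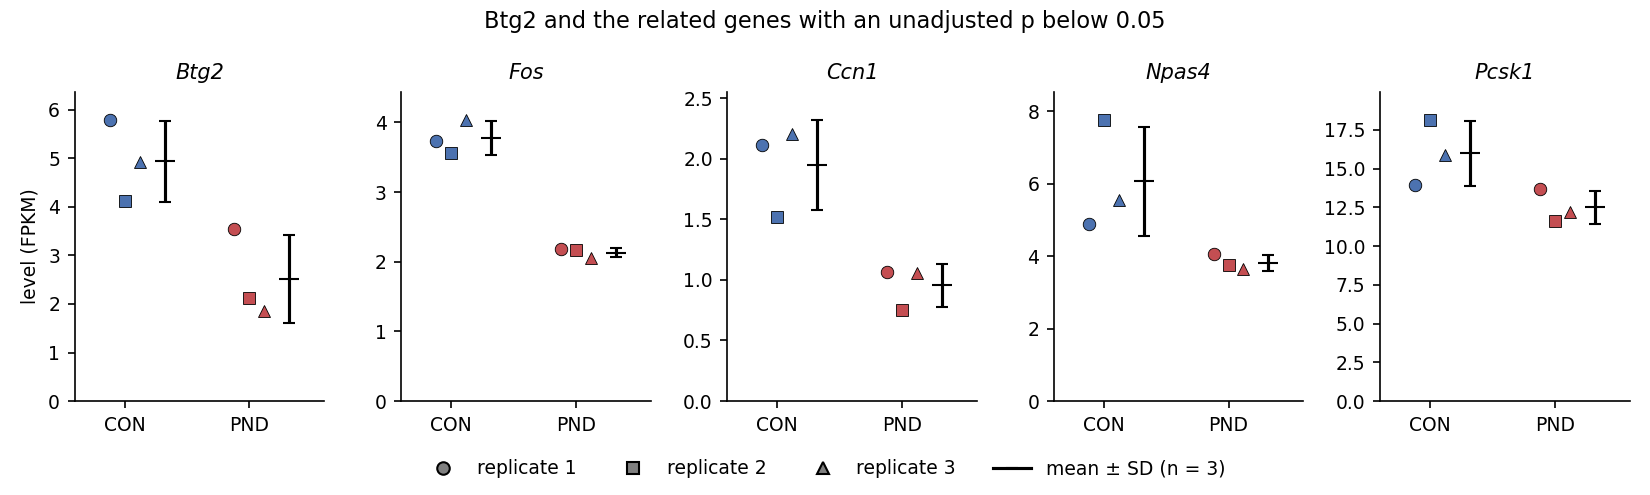
The level in FPKM (y axis, linear, starting at 0) of Btg2 and of the 4 related genes with an unadjusted p below 0.05 is shown for each animal, with the mean ± SD at the side. In each of the 5 genes the 3 PND samples lie below the 3 CON samples, as they do in 3.88% of all genes tested. The 5 were picked by their p from these same samples, a choice that favours groups which separate. The margin is widest in Fos and narrowest in Pcsk1, where PND replicate 1 (13.7 FPKM) and CON replicate 1 (13.9 FPKM) almost meet.

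Of the marker genes of cell types 0 had an adjusted p below 0.05 in limma, and those called higher or lower here had an unadjusted p below 0.05, as did 3.13% of all genes. The astrocyte list had 1 of 5 genes higher, Gfap, and 1 lower, Aqp4, with an unadjusted p below 0.05, and summed to 164 to 180 FPKM in PND and 163 to 182 FPKM in CON. Of the microglia list 1 of 5 genes was lower, P2ry12, and the list summed to 17.8 to 25.1 FPKM in PND and 19.7 to 29.6 FPKM in CON. The oligodendrocyte list summed to 110 to 138 FPKM in PND and 137 to 150 FPKM in CON, the endothelial list to 13.7 to 16.9 and 12.9 to 16.9 FPKM, and the interneuron list to 195 to 216 and 183 to 211 FPKM. The choroid plexus list summed to little in all samples, with 0.712 to 0.916 FPKM in PND and 0.453 to 0.657 FPKM in CON. Most of this sum was Kl, with 0.639, 0.485 and 0.623 FPKM in PND and 0.460, 0.353 and 0.506 FPKM in CON, groups that overlap, and the defining markers Ttr, Folr1, Aqp1 and Otx2 were each listed at 0 in at least 1 sample. The part of these cell types in the levels of Btg2, Fos, Npas4, Ccn1 and Pcsk1 was not tested.

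In order of their mean level over the 6 samples the 10 genes were Dusp6 (22.7 FPKM), Arc (8.63), Nr4a2 (5.90), Ptgs2 (5.53), Nptx2 (3.77), Btg2 (3.72), Dusp1 (3.24), Nr4a3 (1.44), Dusp5 (1.39) and Ier2 (1.17). The range of each gene over the samples overlapped that of the next in this order. Within a sample, however, Dusp6 was above Arc and Ptgs2 above Nptx2 in 6 of 6 samples, while the other neighbours kept this order in 1 to 5 samples. Dusp6 lay above 93.5% of all 21006 genes and Ier2 above 43.6%. The spread within groups also set the genes apart. The coefficient of variation was 74.5% for Arc in CON and 70.1% for Nr4a3 in PND, and between 10.7% and 36.1% for all other pairs of gene and group.

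The 10 genes did not all deviate the same way in a sample. CON replicate 3 was above the gene mean in 9 of the 10 genes, CON replicate 2 in 7 and CON replicate 1 in 2. PND replicates 1, 2 and 3 were above it in 5, 1 and 6 of the genes. The mean deviation over the 10 genes was -0.035, -0.27 and 0.027 in PND replicates 1 to 3 and -0.17, 0.26 and 0.20 in CON replicates 1 to 3 on the log2 scale. After GC correction it was -0.099, -0.11 and -0.15 in PND and 0.096, 0.035 and 0.22 in CON. Among 12319 other genes of at least 1 FPKM, those whose profile over the 6 samples was most like this mean were Ddx23 and Cthrc1 (Pearson r = 0.991 each), Rce1 (0.990), Mpped1 (0.988) and Bicd2 (0.983). With 6 samples and so many genes such values are a description only.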

How the data were processed

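Total RNA of the prefrontal cortex of 6 animals, 3 PND and 3 CON, was depleted of ribosomal RNA and sequenced on an Illumina instrument. The authors filtered the reads with Seqtk, aligned them with HISAT2, counted fragments with StringTie, scaled the samples by TMM and deposited FPKM. The submitters' processing notes name Bowtie 0.12.2 and the builds mm8 and mm9, and the build and annotation behind the FPKM are not given in the sources used here. Groups came from the treatment label, replicate numbers from the title.

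Symbols matched 20866 of 21006 identifiers. Coordinates, merged exon lengths and GC content of the longest transcript came from GENCODE M21 (GRCm38). Between 40.9% and 44.7% of low values lay within 0.05 of a whole fragment, against 10% without steps, which gave the estimated depths. The groups were compared by limma 3.58.1 (R 4.3.3, eBayes with trend) after adding a pseudocount of 0.1 and taking log2. Genes averaging 0.1 FPKM or more entered the fit, 18185 in all. Fold changes on this scale understate those of low genes. P-values were adjusted by Benjamini-Hochberg over all genes tested. The study's cut-off was an absolute log2 fold change above 1 with an unadjusted p below 0.05. The fit was tested on simulated data. No 2 samples held identical values.

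The genes and lists were chosen with earlier results of these data known. Named beside the 10 genes were the related genes with an unadjusted p below 0.05, the smallest p of each list of at least 4 tested genes, and the 5 genes most like the mean profile. Other genes named were chosen after their values were seen. The result of a single marker gene is not reported here.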

Additional observations from a re-analysis of the deposited data

How the results depend on the processing

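All 17 alternatives were planned. They were pseudocounts of 1 and 0.01, no filter, a mean of at least 1 FPKM, quantile normalization, median centring, no trend, a replicate block, GC correction (a spline with 5 degrees of freedom per sample) alone and with the block, voom on estimated fragments, and leaving out each sample. Of the 170 log2 fold changes of single genes, 163 kept their direction and their side of an unadjusted p of 0.05. The direction reversed for Arc without CON replicate 2 (0.402) and PND replicate 2 (0.048; range -0.862 to 0.402 when a sample was left out), for Dusp5 without CON replicate 1 (-0.07; -0.07 to 0.201), for Nptx2 without PND replicate 3 (-0.009; -0.009 to 0.358) and for Nr4a3 without PND replicate 3 (-0.25; -0.25 to 0.52). The cause was not tested. Btg2 passed the study's cut-off, as 1 gene against 0, with a pseudocount of 0.01, quantile normalization, median centring, GC correction with and without the block, and voom, since its log2 fold change of -0.99 lies at the limit of 1, and the number ranged from 0 to 1 when a sample was left out. Over all genes 1.33% passed it as reported, 1.27% to 1.47% in the settings named and 1.32% to 2.21% when a sample was left out. The number with an unadjusted p below 0.05 was 2 with GC correction and the block (Nr4a2, log2 fold change -0.371, beside Btg2) and 1 to 2 when a sample was left out (Arc beside Btg2 without CON replicate 1), where 3.50% and, without CON replicate 1, 4.63% of all genes had one. The number whose groups did not overlap was 2 to 5 when a sample was left out, with 4 without CON replicate 1 and 5 without PND replicate 1, but 3 against 2 samples overlap less often by themselves, and 19.4% and 13.7% of all genes did not overlap there, against 7.66% with all samples. The median log2 fold change of the 10 genes ranged from -0.378 to -0.019 across the same fits, and the number of related genes with an unadjusted p below 0.05 from 3 to 11. No adjusted p of the 10 genes was below 0.05 under any of the 17 alternatives, and the lowest was 0.8276.

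Same-numbered samples of the groups share only a number. Their departures from their own group mean correlated, over 12387 genes, at -0.0487, -0.451 and 0.0274 for replicates 1 to 3, and PND replicate 2 correlated best with CON replicate 1 (0.43). With the replicate block 1 of the 10 genes had an unadjusted p below 0.05, Btg2 with a log2 fold change of -0.99, and 361 of all genes had one against 569. Depth limited Ier2 and Dusp5 most, with 11 and 19 estimated fragments in their lowest samples.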
